A study of Mus musculus with 6 samples.

Results

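The immediate early response genes Fos, Fosb, Jun, Junb, Jund, Egr1, Egr2, Atf3, Ier2 and Ier3 were followed in whole lung of male FVB pups (FVB/N in the methods of the study) at postnatal day 6 (P6). The 10 genes were chosen by name, with earlier results of these data known. Each was measured by 1 of the 25697 probes of an Illumina MouseRef-8 BeadChip. For 9 genes the array's symbol was the same name, and Jund was found under its older symbol Jund1. Both groups comprised 3 mice, with 1 array per mouse. The hSRY-OFF label denotes mice with the Signalox-hSRY transgene in its unrecombined state, in which the CAG promoter drives DsRed2 and the FLAG-tagged human SRY with EGFP behind it is silent. In hSRY-ON mice, Cre protein carried over from eggs of Ddx4-Cre mothers had removed DsRed2 in the zygote, so that the CAG promoter drove human SRY and EGFP throughout the body. The hSRY-ON mice of the arrays did not carry Ddx4-Cre themselves. The transgene was a single copy at the H11 locus of chromosome 11. The study's methods define hSRY-OFF as carriers without recombination and use that name for the array mice. Littermates without the transgene also served as controls in the study, so the carrier state of these lungs rests on that name.

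Immediate early genes are transcribed within minutes of a signal at the cell surface, without new protein being made first. Kinases of the MAPK cascades act on serum response factor with its ELK partners, which bind CArG boxes, and on CREB and ATF proteins, which bind the cyclic AMP response element (CRE). FOS and JUN proteins pair to form the transcription factor AP-1, the EGR proteins are zinc finger factors, ATF3 is a stress-induced partner of JUN proteins, and IER2 and IER3 are small proteins of the same response. Their transcripts are short-lived. In lung they are known to respond to growth factors, stretch and inflammatory signals, and also to the handling of fresh tissue.

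The promoter sequences of 3 members are given to show whether CArG boxes or CRE motifs lie close to a start site. Sequence further away was not searched. Egr2 was the member that passed the test, Fos had the largest fitted change, and Ier3 was the member higher in every hSRY-ON lung that came closest to the threshold. RefSeq promoter windows (GRCm38.p6) of 250 bases before and 50 bases after a start site were found for 8 members, and not for Egr1 or Ier2. Capitals mark a CArG box or TGACG, the short form of the CRE, on either strand.

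Egr2, chr10:67537619-67537918, plus strand: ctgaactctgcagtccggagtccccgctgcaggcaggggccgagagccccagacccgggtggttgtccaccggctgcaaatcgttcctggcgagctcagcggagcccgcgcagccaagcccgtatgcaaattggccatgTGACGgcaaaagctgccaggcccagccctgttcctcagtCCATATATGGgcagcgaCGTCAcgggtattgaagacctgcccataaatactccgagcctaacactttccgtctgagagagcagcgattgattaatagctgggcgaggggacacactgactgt

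Fos, chr12:85473640-85473939, plus strand: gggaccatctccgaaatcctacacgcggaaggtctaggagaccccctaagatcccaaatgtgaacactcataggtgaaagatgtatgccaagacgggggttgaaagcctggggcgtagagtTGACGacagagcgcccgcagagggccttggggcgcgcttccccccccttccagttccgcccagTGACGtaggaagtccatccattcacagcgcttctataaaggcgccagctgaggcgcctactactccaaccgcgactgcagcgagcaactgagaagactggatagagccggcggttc

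Ier3, chr17:35821463-35821762, plus strand: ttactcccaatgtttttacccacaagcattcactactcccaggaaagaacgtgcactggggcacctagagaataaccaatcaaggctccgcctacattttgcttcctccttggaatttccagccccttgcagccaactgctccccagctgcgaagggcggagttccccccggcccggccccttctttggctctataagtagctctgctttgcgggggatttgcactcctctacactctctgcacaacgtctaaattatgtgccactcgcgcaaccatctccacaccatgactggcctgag

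The Egr2 window held a CArG box from -72 to -63, counted from the start site, with a TGACG on each side. It is 1 of 5 windows for Egr2, of which 4 held a CArG box, and several of these windows overlap. Both matches in Fos were TGACG, at -129 and -66, and the Ier3 window held neither motif. Searched on both strands, a CArG box was found in 1 of the 8 members (Egr2), against 1.63% of 32851 promoter windows. Members are counted here as genes, with a match in any of their windows, while the percentages count single windows, so the units differ. TGACG was found in 5 (Atf3, Egr2, Fos, Fosb and Junb), against 20.8% of windows. The EGR motif, GCGTGGGCG or GCGGGGGCG, was found in Fosb, against 3.47% of windows. No member's window held the whole CRE TGACGTCA (1.79% of windows), which contains TGACG, an AP-1 motif TGACTCA or TGAGTCA (5.20%), or AACAAT (10.7%), a core that SOX proteins bind. The windows are short, and such matches describe letters, not bound sites.

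Of the 10 members, Egr2 was the only one called different, and it was lower in hSRY-ON lungs. Testing was limited to probes that 3 or more of the 6 arrays detected, with a detection p under 0.05, and 9 members met this. Of these, 1 was called lower and 0 higher at an adjusted p under 0.05 (limma, Benjamini-Hochberg over all 13841 tested probes), which is 11.1% of the members against 26.9% of all tested probes (13.6% higher and 13.3% lower). At an unadjusted p under 0.05, 4 members passed, Junb, Jund and Ier3 with higher means and Egr2 with a lower mean, against 41.0% of all tested probes. The groups did not overlap for 3 members (Jund, Egr2 and Ier3), against 46.6% of all probes. The mean was higher in hSRY-ON for 6 members and lower for 3, where 46.8% of all probes had the higher mean in hSRY-ON. The median change was 0.50 on the log2 scale, beside -0.03 for all tested probes. Precision is limited throughout by having 3 arrays per group. Whole lung was measured, so a change in the number of cells of a type and a change in RNA per cell cannot be told apart.

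The 6 arrays had median intensities of 177.1 to 204.0 and 13191 to 14134 detected probes. The Sry probe of the array is for the mouse gene, so the arrays do not check the state of the human transgene. Levels are given as normalized log2 intensities, and only within a probe. The hSRY-ON arrays varied more among themselves, with a median SD of 0.22 against 0.13 in hSRY-OFF and a larger SD for 73.6% of probes. Among the 9 tested members, 8 had the larger SD in hSRY-ON, and Egr2 did not.

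**Figure D1:**
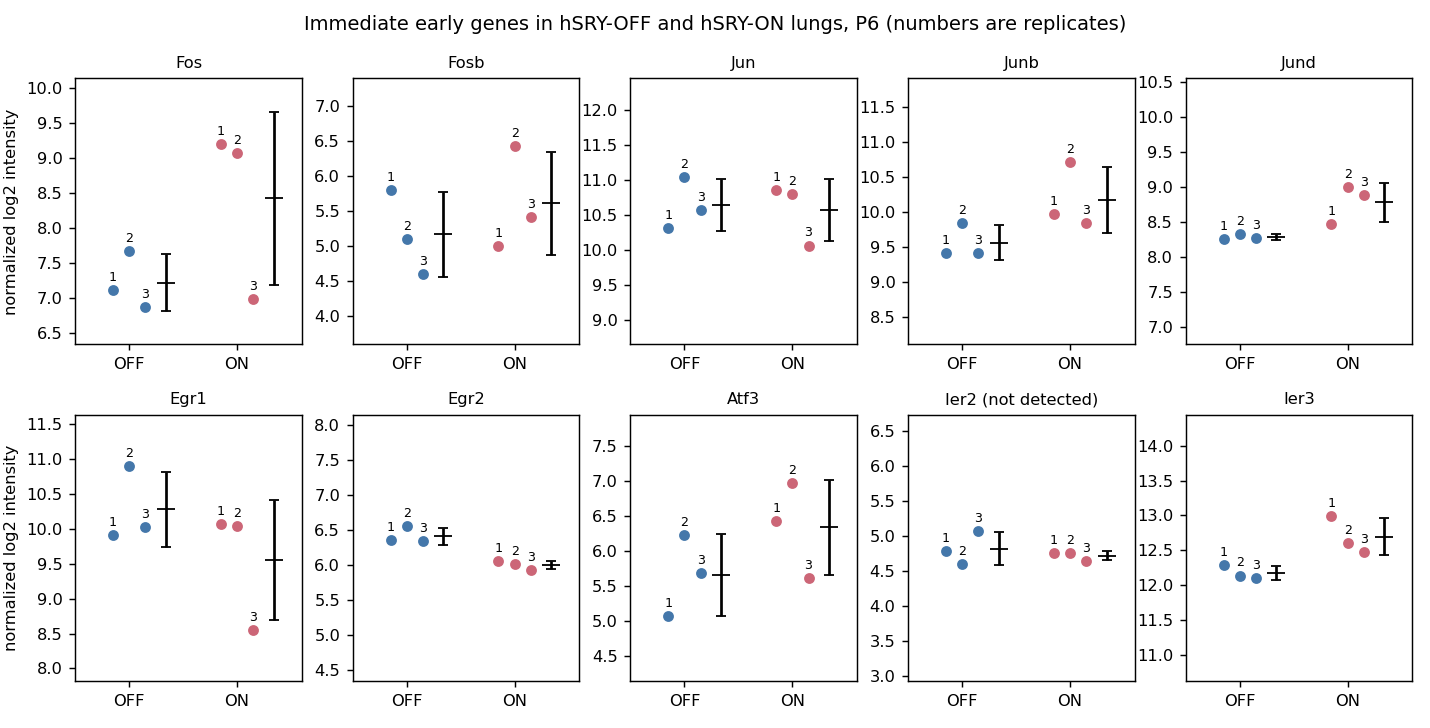
Normalized log2 intensity of the probe of each of the 10 members in the 3 hSRY-OFF (blue) and 3 hSRY-ON (red) lungs, with replicate numbers, and the mean ± SD of each group as a black bar; every panel spans the same log2 range, around a different centre. Fos splits the hSRY-ON lungs, with replicates 1 and 2 above 9 and replicate 3 at 6.99, while Egr2, Jund and Ier3 show no overlap between groups.

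Fos encodes the dimer partner that makes AP-1 strongly active. Its probe (ILMN_2750515) read 7.11, 7.67 and 6.88 in hSRY-OFF replicates 1 to 3, and 9.20, 9.08 and 6.99 in hSRY-ON replicates 1 to 3. Thus, 2 hSRY-ON lungs were above all hSRY-OFF lungs, and the third lay among them. The deposited intensities were 282.9, 328.4 and 288.7 in hSRY-OFF and 658.8, 650.2 and 270.0 in hSRY-ON, where replicate 3 was below all hSRY-OFF lungs. The fitted change was 1.21 (95% interval -0.15 to 2.56), a 2.31-fold higher mean, and it did not pass the threshold (limma, adjusted p = 0.160). The SD of Fos in hSRY-ON was 1.24, larger than that of 99.7% of tested probes. Without hSRY-ON replicate 3 the change was 1.91 and passed (limma, adjusted p = 0.00388), and without hSRY-ON replicate 1 or 2 it was 0.82 and 0.87. It was 0.74 on uncorrected intensities scaled by 1 factor per array (limma, adjusted p = 0.128).

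Fosb, a close relative of Fos, was near background. It was detected in hSRY-OFF replicate 1 and in hSRY-ON replicates 2 and 3. Its values were 5.81, 5.10 and 4.60 in hSRY-OFF and 5.003, 6.43 and 5.41 in hSRY-ON, and the groups overlapped. The change was 0.45 (95% interval -0.56 to 1.45; limma, adjusted p = 0.464). It ranged from 0.16 without hSRY-OFF replicate 3 to 0.76 without hSRY-ON replicate 1, and was 0.15 without background correction. No difference was detectable at this signal.

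The JUN proteins pair with FOS proteins or with each other. Jun, the most potent activator of the family, read 10.32, 11.04 and 10.57 in hSRY-OFF and 10.85, 10.80 and 10.06 in hSRY-ON. The groups lay over each other, and the change was -0.07 (95% interval -0.70 to 0.56; limma, adjusted p = 0.866). Its sign turned to 0.13 without hSRY-OFF replicate 2 and to 0.18 without hSRY-ON replicate 3.

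Junb, which can oppose Jun in growth control, read 9.41, 9.84 and 9.41 in hSRY-OFF and 9.97, 10.71 and 9.83 in hSRY-ON. The hSRY-ON values were above every hSRY-OFF value in replicates 1 and 2, and just below the highest hSRY-OFF value in replicate 3. The change was 0.62 (95% interval 0.02 to 1.21), which did not pass over all probes (limma, adjusted p = 0.111). Without hSRY-ON replicate 2, the highest of the group, it was 0.34 (limma, adjusted p = 0.218).

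Jund, the family member that most cells express at rest, read 8.26, 8.33 and 8.27 in hSRY-OFF and 8.47, 8.99 and 8.88 in hSRY-ON. The 3 hSRY-OFF lungs were almost alike, and every hSRY-ON lung was above them. The change was 0.50 (95% interval 0.12 to 0.87), just short of a call (limma, adjusted p = 0.0568). Without hSRY-ON replicate 1, the lowest of the group, it was 0.65 and passed (limma, adjusted p = 0.00981). With any other array left out it did not pass (limma, adjusted p 0.113 to 0.160), and it was 0.39 without hSRY-ON replicate 2.

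The EGR genes among the members, Egr1 and Egr2, had lower means in hSRY-ON, with overlapping groups for Egr1. Egr1, an early zinc finger factor induced by growth factors and stretch, read 9.91, 10.89 and 10.03 in hSRY-OFF and 10.06, 10.04 and 8.56 in hSRY-ON. The lowest value was in hSRY-ON replicate 3 and the highest in hSRY-OFF replicate 2, with the remaining 4 lungs between 9.91 and 10.06. The change was -0.72 (95% interval -1.79 to 0.34; limma, adjusted p = 0.269). It was -0.23 without hSRY-ON replicate 3 and -0.42 without hSRY-OFF replicate 2.

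Egr2, known for its role in Schwann cell myelination and in lymphocytes, read 6.36, 6.56 and 6.34 in hSRY-OFF and 6.06, 6.02 and 5.94 in hSRY-ON. All hSRY-ON lungs were below all hSRY-OFF lungs. The probe was dim but detected on all arrays, with intensities of 223.0 to 245.0 in hSRY-OFF and 192.6 to 203.4 in hSRY-ON. Egr2 fell by 0.41 on the log2 scale (95% interval -0.69 to -0.13; limma, adjusted p = 0.0409). The call was close to the threshold. It was lost when any of the hSRY-OFF arrays, or hSRY-ON replicate 2 or 3, was left out (limma, adjusted p 0.0757 to 0.154). The change was -0.14 without background correction (limma, adjusted p = 0.171). Of the lymphocyte markers (8 of 10 genes tested, Ms4a1 not detected), 6 of 9 probes were called lower, against 13.3% of all tested probes. Their summed normalized intensity was 1959 to 2292 in hSRY-OFF and 833 to 1651 in hSRY-ON. Their part in the change of Egr2 was not tested.

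Atf3 encodes a bZIP factor that cells make under stress. It read 5.06, 6.23 and 5.68 in hSRY-OFF, where replicate 1 was not detected, and 6.42, 6.97 and 5.61 in hSRY-ON. Again replicates 1 and 2 of hSRY-ON were above all hSRY-OFF lungs and replicate 3 was not. The change was 0.68 (95% interval -0.27 to 1.63; limma, adjusted p = 0.245), and no array left out gave a call. It was 1.04 without hSRY-ON replicate 3 (limma, adjusted p = 0.0771), 0.38 with hSRY-OFF replicate 1 left out and 0.37 with hSRY-ON replicate 2 left out. Without background correction it was 0.23.

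Ier3, which is induced by inflammatory signals and affects cell survival, was bright, at 12.30, 12.14 and 12.10 in hSRY-OFF and 12.99, 12.61 and 12.48 in hSRY-ON. All hSRY-ON lungs were above all hSRY-OFF lungs. The change was 0.51 (95% interval 0.14 to 0.89), a 1.43-fold higher mean that narrowly missed the threshold (limma, adjusted p = 0.0526). Without hSRY-ON replicate 3 it was 0.62 and passed (limma, adjusted p = 0.0330). With any other array left out it did not pass (limma, adjusted p 0.0708 to 0.152), and it was 0.36 without hSRY-ON replicate 1. The probe of Ier2 was not detected on any array, with intensities of 143.1 to 184.1 and detection p-values from 0.128 to 0.619, and it was not tested.

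**Figure D2:**
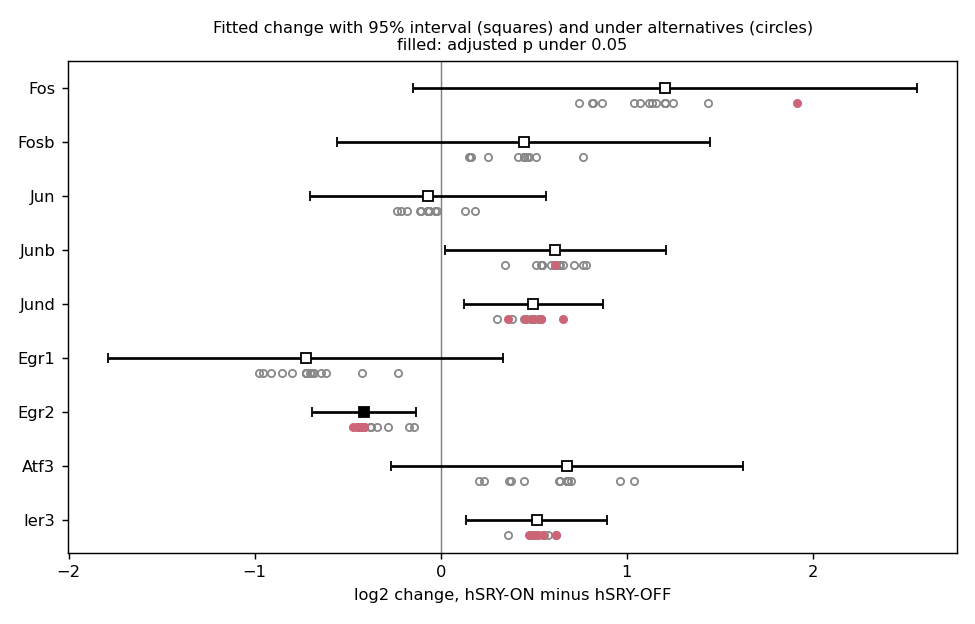
Fitted log2 change, hSRY-ON minus hSRY-OFF, of the 9 tested members, as squares with 95% intervals, and below each the change under other settings of the processing and with each array left out, as circles; filled symbols passed an adjusted p under 0.05. Egr2 is the only filled square, and Jund and Ier3 have filled circles on the higher side.

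The calls for Jund, Egr2 and Ier3 depended on the setting. Of 17 other fits, Jund was called higher in 7, Ier3 was called higher in 8 and Egr2 was called lower in 5. Fos and Junb were called higher in 1 each. Fosb, Jun, Egr1 and Atf3 were called in 0 of theirs, with the lowest adjusted p at 0.0771, for Atf3 (limma). Fosb could be tested in 13 and Atf3 in 16 of these fits. All members but Jun kept the sign of their change in every fit that tested them.

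Members tended to be high or low in the same lungs of a group. In hSRY-ON replicate 3, 7 of the 9 tested members had the lowest value of their group (Fos, Jun, Junb, Egr1, Egr2, Atf3 and Ier3), as did 30.9% of all tested probes. The deviation of that lung from the hSRY-ON mean was -1.43 for Fos, -0.99 for Egr1, -0.72 for Atf3 and -0.51 for Jun. In hSRY-OFF replicate 2, 7 members had the highest value of their group (Fos, Jun, Junb, Jund, Egr1, Egr2 and Atf3), as did 31.7% of all probes. Here the deviation was 0.61 for Egr1, 0.57 for Atf3, 0.45 for Fos and 0.40 for Jun. Over the members, the median deviation was 0.29 in that lung, 0.49 in hSRY-ON replicate 2 and -0.33 in hSRY-ON replicate 3. This pattern was noticed in the data, and no test was made of it.

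**Figure D3:**
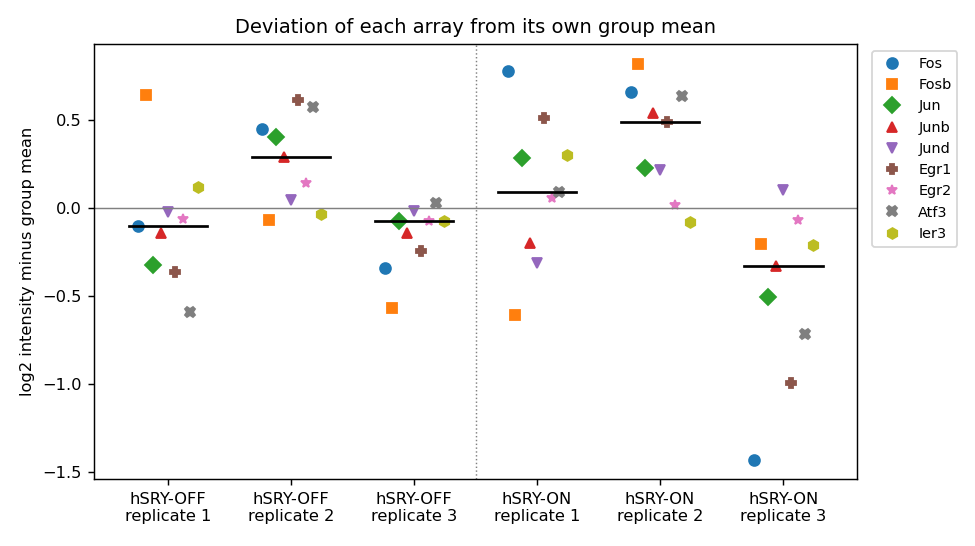
Log2 intensity of each of the 9 tested members minus the mean of its own group, for each of the 6 lungs, with the median over members as a black line. Most members lie above 0 in hSRY-OFF replicate 2 and hSRY-ON replicate 2, and below 0 in hSRY-ON replicate 3, where Fos reaches -1.43.

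Other signals also set hSRY-ON replicate 3 apart. The summed normalized intensity of the neutrophil markers (8 of 10 genes tested, Cxcr2 and Mmp8 not detected) was 35072 there, against 9094 and 13877 in the other hSRY-ON lungs and 5148 to 5864 in hSRY-OFF. That of the lymphocyte markers was 1651, against 833 and 873 in the other hSRY-ON lungs. That of the cardiac muscle markers (8 of 10, Ryr2 not detected) was 4610, against 8071 and 9500 in hSRY-ON and 7658 to 10725 in hSRY-OFF. Between the groups, 3 of 8 neutrophil probes were called higher, 0 lower and 5 were not called. The 9 cardiac muscle probes were divided, with 1 called higher, 3 lower and 5 not called. Over all tested probes, 13.6% were called higher and 13.3% lower. The part of these cells in the low Fos and Egr1 values of that lung was not tested.

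Ratios between members within an array set aside what the members share in a lung. For the 7 members detected on all arrays, the log2 ratio was taken for all 21 pairs and set to 0 at its hSRY-OFF mean. The ratio of Fos to Egr1 was 0.26, -0.16 and -0.09 in hSRY-OFF and 2.20, 2.10 and 1.49 in hSRY-ON. Every hSRY-ON lung, replicate 3 included, was far above the hSRY-OFF lungs. The difference was 1.93, and the SD of the ratio among the hSRY-ON lungs was 0.38, where Fos alone had an SD of 1.24 and Egr1 of 0.86.

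The ratio of Fos to Jun was 0.22, 0.05 and -0.27 in hSRY-OFF and 1.77, 1.70 and 0.35 in hSRY-ON, so that replicate 3 was close to the hSRY-OFF range. Within the JUN family, the ratio of Jun to Junb was -0.18, 0.11 and 0.07 in hSRY-OFF and -0.20, -0.996 and -0.86 in hSRY-ON, and hSRY-ON replicate 1 lay next to hSRY-OFF replicate 1. The ratio of Junb to Egr1 was 0.22, -0.32 and 0.10 in hSRY-OFF and 0.63, 1.39 and 2.001 in hSRY-ON. In contrast, the ratio of Jund to Ier3, both with higher means, differed by -0.02 between groups, and that of Egr1 to Egr2 by -0.31, each with overlapping groups.

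In all, the groups did not overlap for 10 of the 21 pairs. Single probes did not overlap in 46.6% of cases over the whole array, which is an unlike measure. Ratios between other probes were not formed, so the count has no background of its own and is not read as a trait of the members. For each of the 10 pairs an exact two-sided permutation test over arrays gave p = 0.1, the smallest value that 3 against 3 arrays allow, and 0.21 after adjustment over the 21 pairs. Groups of 3 that do not overlap always give this p, so the test adds nothing to the lack of overlap. The pairs share members and were examined after the members' values were known, and the pairs named first were chosen for their difference. A ratio shows unequal change of its members, not which of them changed.

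**Figure D4:**
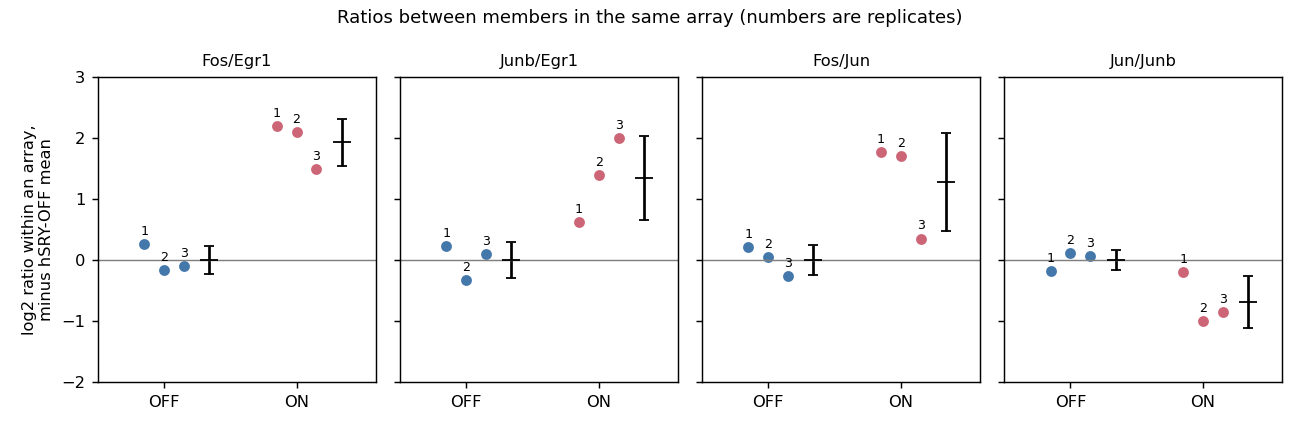
Log2 ratio of pairs of members within an array, minus the hSRY-OFF mean of that ratio, for the 3 hSRY-OFF (blue) and 3 hSRY-ON (red) lungs, with replicate numbers and the mean ± SD as a black bar. The ratio of Fos to Egr1 lies between 1.49 and 2.20 in hSRY-ON and between -0.16 and 0.26 in hSRY-OFF.

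The rest of the pathway was described with 5 lists of 104 genes, of which 77 were tested by 112 probes. Of these probes, 14 were called higher and 17 lower, which is 27.7% against 26.9% of all tested probes (limma). The share was near the background. In the genes below, each change is given on the log2 scale, and every adjusted p is from limma. For genes added after their values were seen, mostly the change alone is given, and fits with an array left out are not reported.

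Upstream of the members, the list of kinases and SRF had 30 tested probes, with 3 called higher, 4 lower and 23 not called, and a median change of -0.08. The called share was 23.3%, against 26.9% of all tested probes. Both probes of Srf, the factor that binds CArG boxes, fell. Probe ILMN_2988299 read 10.41, 10.80 and 10.87 in hSRY-OFF and 9.77, 9.50 and 9.71 in hSRY-ON, a change of -1.03 (adjusted p = 0.00575). The change of the dimmer probe ILMN_1242533 was -0.90 (adjusted p = 0.00974), and -0.31 without background correction, where the call held. Elk3, an ETS factor that works with SRF, changed by -0.86 (adjusted p = 0.00810). Map3k8, a kinase that starts the ERK cascade in inflammation, rose by 1.24 (adjusted p = 0.00828). Mapkapk2, a kinase of the p38 branch, was called higher as well, by 0.51 (adjusted p = 0.0407). The remaining probe called higher, of Mapk7, was detected on 1 of 3 hSRY-OFF arrays and so has no measured level there. In Srf, Elk3 and Map3k8 all hSRY-ON lungs lay on the same side of all hSRY-OFF lungs, and the calls held with any array left out. The signal of the mesenchymal and smooth muscle markers (9 of 10 genes tested), cells that depend on SRF, was lower as well, at 48631 to 55288 in hSRY-ON against 58702 to 63993 in hSRY-OFF, and its part in the fall of Srf was not tested.

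Beside the members, the list of AP-1 and other bZIP partners had 20 tested probes, with 1 called higher, 1 lower and 18 not called, and a median change of -0.04. Jdp2, a repressor that pairs with JUN proteins, read 8.12, 8.09 and 8.49 in hSRY-OFF and 9.49, 9.29 and 9.05 in hSRY-ON, so the groups were well apart. It rose by 1.04 (adjusted p = 0.00657). The probes of Atf7, a relative of ATF2, disagreed in size. ILMN_2696100 changed by -0.88 (adjusted p = 0.00388), and by -0.31 without background correction, where the call held (adjusted p = 0.0169). The brighter ILMN_1250975 changed by -0.33 and was not called (adjusted p = 0.162). In the list of EGR, NAB and NR4A genes, 0 of 5 tested probes were called (limma), and 0 had an unadjusted p under 0.05. Egr3 was detected on 1 hSRY-ON array and Nr4a1 on 0 arrays, so neither was tested.

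Among the genes that shut the response down, the list of phosphatases and RNA decay factors had 17 tested probes. Of these, 0 were called higher, 4 lower and 13 not called, with a median change of -0.19. The called share was 23.5%, against 26.9% of all tested probes (13.6% higher and 13.3% lower), and no test was made of this difference. Dusp10, a phosphatase of JNK and p38, changed by -1.11 (adjusted p = 0.0128), and by -0.44 without background correction, where the call held. Its other probe changed by -1.02 and was called too. Spry4, an inhibitor of receptor tyrosine kinase signalling, changed by -0.76 (adjusted p = 0.0276). Of the 3 probes of Dusp6, a phosphatase of ERK, ILMN_2701321 changed by -0.75 (adjusted p = 0.0409). The brightest, ILMN_2925711, changed by -0.19 (adjusted p = 0.395) and ILMN_1248537 by -0.56 (adjusted p = 0.445), both with overlapping groups, so Dusp6 as a gene has no settled change. The calls of these probes were lost when some of the arrays were left out, for Dusp10 without hSRY-OFF replicate 1 or 2 (adjusted p = 0.0566 and 0.0565), for Spry4 without hSRY-OFF replicate 2 or 3 or hSRY-ON replicate 1 or 3 (0.0512 to 0.0997), and for Dusp6 with each array but hSRY-ON replicate 1 left out (0.0560 to 0.124).

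Dusp1, an early phosphatase of the MAP kinases that glucocorticoids also induce, read 11.57, 12.69 and 12.33 in hSRY-OFF and 12.88, 12.77 and 11.95 in hSRY-ON, and the groups overlapped (change 0.34, adjusted p = 0.497). Zfp36, which binds AU-rich elements and speeds the decay of short-lived messages, read 10.97, 11.14 and 10.70 in hSRY-OFF and 11.75, 12.05 and 10.95 in hSRY-ON. As with Fos, hSRY-ON replicate 3 alone lay within the hSRY-OFF range. Its change was 0.64 (adjusted p = 0.134), and 0.96 without that lung (adjusted p = 0.0128). No other array left out gave a call, and without hSRY-ON replicate 2 the change was 0.41 (adjusted p = 0.325).

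The last list, of other fast response genes, had 40 tested probes, with 10 called higher, 8 lower and 22 not called, and a median change of 0.06. Its called share was 45.0%, against 26.9% of all probes, and no test was made of this difference. Per1, a clock gene that glucocorticoids and CREB induce, read 8.10, 8.67 and 9.04 in hSRY-OFF and 10.30, 10.89 and 10.23 in hSRY-ON, and rose by 1.87 (adjusted p = 0.00496), and by 1.70 with its other probe. Plk2, a kinase of the early response, read 9.73, 9.999 and 9.89 in hSRY-OFF and 8.73, 7.52 and 7.98 in hSRY-ON, a change of -1.80 (adjusted p = 0.00644). For both, all hSRY-ON lungs were far from all hSRY-OFF lungs, and the calls held with any array left out. Errfi1, a feedback inhibitor of the EGF receptor that glucocorticoids also induce, rose by 1.13 (adjusted p = 0.0390), and the call was lost when any array but hSRY-ON replicate 3 was left out (adjusted p from 0.0723 to 0.129). Nfkbia, Ctgf, Cxcl1, Gadd45b, Sgk1 and Klf6 were also called higher, with changes from 0.64 to 0.90, and Klf2 and Ier5l lower, with changes of -0.83 and -0.53. In 3 further genes only some of the tested probes were called. These were Gadd45g (1 of 2, higher; the brighter probe changed by 0.56, adjusted p = 0.0747), Klf4 (1 of 3, lower) and Irf1 (2 of 5, lower). The probes of Myc and Arid5a were called lower, but were detected on 1 and 0 of the hSRY-ON arrays and passed the filter through hSRY-OFF, so no size is given.

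**Figure D5:**
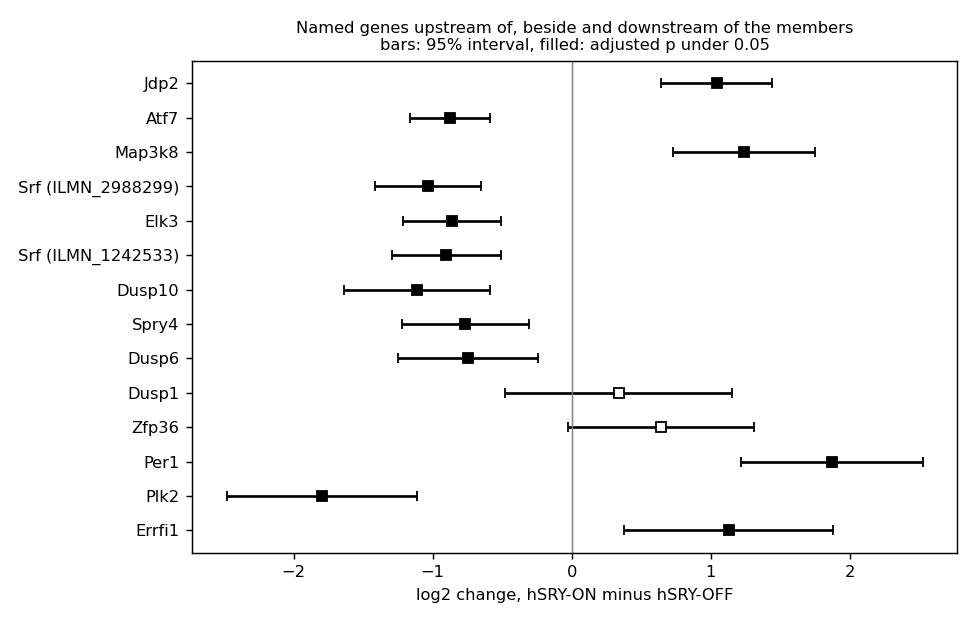
Fitted log2 change, hSRY-ON minus hSRY-OFF, with 95% intervals, of the named genes of the pathway lists, in the order of the lists; filled squares passed an adjusted p under 0.05. Srf, Elk3, Atf7, Plk2, Dusp10, Spry4 and 1 probe of Dusp6 lie below 0, Map3k8, Jdp2, Per1 and Errfi1 above, and Dusp1 and Zfp36 did not pass.

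The tissue markers were read beside these results. Of the 12 lung epithelial genes, 11 were tested, and Hopx was not detected on any array. Their summed normalized intensity was 110110 to 115213 in hSRY-OFF and 115207 to 122940 in hSRY-ON, so the ranges just overlapped. Of 16 probes, 3 were called higher and 0 lower (18.8%). Over all tested probes 26.9% were called, 13.6% higher and 13.3% lower. The macrophage markers (9 of 10 genes tested, Itgax not detected) summed to 24979 to 26754 in hSRY-OFF and 37121 to 52655 in hSRY-ON, with 8 of 14 probes called higher. The endothelial markers (9 of 10, Kdr not detected) summed to 78378 to 83741 and 63269 to 66628, with 4 of 12 probes called lower. The red cell markers (8 of 10) summed to overlapping values, at 62380 to 73441 and 66102 to 77936. The macrophage signal was highest in hSRY-ON replicate 2. In that lung 4 of the 9 tested members (Fosb, Junb, Jund and Atf3) had the highest value of their group, as did 33.7% of all tested probes. The other 5 (Fos, Jun, Egr1, Egr2 and Ier3) were highest in hSRY-ON replicate 1. The part of macrophages in these values was not tested.

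The genes whose array-to-array pattern was most like that of Fos were sought over the deviations of the 6 lungs from their group means. They were 2310007B03Rik, Pnpla8, Mfn1, Fbxo9 and Aaas, with Pearson r of 0.99995, 0.999, 0.998, 0.996 and 0.994. None of these genes was called between the groups (limma, adjusted p from 0.0775 to 0.751). In all, 123 probes (0.889% of those tested) had an r above 0.95. Among the members, r with Fos was 0.96 for Egr1, 0.89 for Jun, 0.78 for Atf3, 0.69 for Egr2, 0.65 for Ier3, 0.62 for Junb, 0.18 for Fosb and -0.30 for Jund. The points share the same 6 arrays, so the values are descriptions.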

How the data were processed

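Total RNA of P6 lungs was hybridised to Illumina MouseRef-8 v2.0 BeadChips, 1 array per mouse. The deposited table held, for each array, non-normalized probe intensities and detection p-values as the authors exported them. The authors' methods name the R package TCC for normalization, and the submitters' processing notes list limma. Here intensities were background-corrected from the detection p-values, offset by 16, quantile-normalized and turned into log2 values in R 4.3.3 with limma 3.58.1. The 13841 of 25697 probes detected on at least 3 of 6 arrays were fitted with lmFit and eBayes, hSRY-ON against hSRY-OFF without covariates, and p-values were adjusted over these probes by Benjamini-Hochberg (threshold 0.05). No batch is given in the labels, and the study does not give the mother or litter of each array mouse. It describes recombination in carriers born to Ddx4-Cre mothers as highly efficient, so hSRY-OFF carriers would come mainly from other matings. A difference of mother or litter cannot be told apart from the group difference. The fit was tested on simulated data.

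The members, pathway lists and marker lists were chosen with earlier results of these data known. Besides all members, the text names the 3 genes per pathway list with the largest change among called probes without overlap, plus Dusp1, Zfp36, Nr4a1, Srf and Egr3, and the 5 genes most like Fos. Mapk7, Mapkapk2 and the other called fast response genes were added after their values were seen. Promoter sequences were from RefSeq (GRCm38.p6), and Jund1 was matched through a RefSeq synonym. The labels only number the replicates, and the study's text describes them as biological triplicates. The p-values test the group difference against the spread among these arrays, moderated over all tested probes. Other background corrections, normalizations, filters, variance models and a replicate block were tried, and each array was left out in turn.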

Additional observations from a re-analysis of the deposited data

How the results depend on the processing

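With 3 arrays per group, changes of dim or variable members such as Fosb, Atf3, Fos and Egr1 were poorly resolved. The 1 member probe called as reported was Egr2, lower. The number was 2 without background correction, with an offset of 50 or with a variance trend and robust fit, in each case Jund and Ier3, both higher, while Egr2 was not called. It was 2 with median scaling (Ier3 higher, Egr2 lower), and 3 for probes detected on all 6 arrays and with array weights (Jund and Ier3 higher, Egr2 lower). The 1 call was Jund, higher, with cyclic loess and Ier3, higher, without background correction and with a single factor per array. The setting thus decided which members were called, while Egr2, Jund and Ier3 each kept the sign of their change. The number was 0 for probes detected on at least 1 array and at an adjusted p under 0.01. Leaving out 1 array gave 0 to 2 member probes, and 0 with any of the hSRY-OFF replicates or hSRY-ON replicate 2 left out. Pathway probes called numbered 14 (without hSRY-OFF replicate 2) to 44 (without hSRY-ON replicate 1) beside 31 as reported, with 17 and 16 without hSRY-OFF replicates 1 and 3, and 12 at an adjusted p under 0.01. All probes called numbered 1504 (without hSRY-OFF replicate 1) to 4384 (without hSRY-ON replicate 1) beside 3728, with 1621, 2103 and 2393 without hSRY-OFF replicates 2 and 3 and hSRY-ON replicate 2, and 1326 at an adjusted p under 0.01. The change of Jun, -0.07 as reported, turned to 0.13 without hSRY-OFF replicate 2 and to 0.18 without hSRY-ON replicate 3, with a range of -0.23 to 0.18 over all arrays left out. The cause of these shifts was not tested.

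Replicate numbers gave no sign of pairing the samples. The correlation of deviations between arrays of the same number was -0.11, 0.10 and -0.09. Between arrays of different numbers it ran from -0.09 to 0.16. With 3 arrays per group, this check cannot exclude a pairing. With the replicate number as a block, 2655 probes, 26 pathway probes and 1 member probe were called. That member was Junb (limma, adjusted p = 0.0467), and Egr2 was not called (limma, adjusted p = 0.0872).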
